A study of Homo sapiens with 6 samples.

Results

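The genes described here are the translation initiation and elongation factors of HepG2, an established human hepatoma line. They were taken by name, as the rows of the count table whose symbol begins with EIF1 to EIF6 or with EEF1 or EEF2, leaving out the eIF2 kinases, which gave 66 of the 20030 genes listed. The study compared HepG2 cells that stably carried a control short hairpin RNA (sh-ctrl, 3 libraries) with HepG2 cells that carried a hairpin against KIF11 (sh-KIF11, 3 libraries). KIF11 is the kinesin-5 motor that pushes spindle poles apart in mitosis, and the question put to these genes was how the mRNAs of the translation machinery differed once it was reduced. The hairpins were delivered by lentivirus and infected cells were selected with puromycin, without a clone being named. The labels and methods do not say whether the 3 libraries of a group came from separate cultures, so the p-values measure the spread between these libraries, which may be technical.

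Translation begins when a small ribosomal subunit, carrying the initiator tRNA on eIF2 and held by eIF3, is brought to the capped end of an mRNA by eIF4E, eIF4G and the helicase eIF4A, and then scans to a start codon. After the large subunit joins, eEF1A delivers each aminoacyl-tRNA, eEF1B recharges eEF1A with GTP, and eEF2 moves the ribosome along by a codon. Many elongation factor mRNAs, like those of ribosomal proteins, start with a run of pyrimidines (a TOP tract) through which mTOR signalling controls their translation, and the liver, which secretes large amounts of protein, expresses these factors at high levels.

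The libraries held 18318295 to 19583282 counts in sh-ctrl and 18167773 to 19102804 counts in sh-KIF11. KIF11 itself was counted 1976, 2088 and 2039 times in sh-ctrl and 1448, 1478 and 1240 times in sh-KIF11 (log2 fold change -0.75, SE 0.0573). All 11 hepatocyte markers checked were above 1 CPM in every library, summing to 33892 to 35533 CPM in sh-ctrl and 14931 to 16105 CPM in sh-KIF11. None of 6 fibroblast markers, 2 of 5 endothelial markers and 3 of 6 leukocyte markers passed 1 CPM. The leukocyte sum, carried by LYZ, was 2488 to 2985 CPM in sh-ctrl and 508 to 640 CPM in sh-KIF11, while PTPRC, which defines leukocytes, was at or near 0. Here CPM means counts scaled to the size of the library and by TMM, a scaling that sets the bulk of genes equal between libraries. The TMM factors were 0.922 to 0.926 in sh-ctrl and 1.08 to 1.09 in sh-KIF11, and scaling by library totals alone moved the median log2 fold change of all genes from 0.00 to 0.24. Every direction below is therefore relative to the bulk of genes, and it is said where library totals turn it. The part of the lower hepatocyte and LYZ levels in these results was not tested, and fewer mRNA molecules per cell cannot be told apart from fewer cells with the mRNA. The sh-ctrl replicate 3 library stood apart, with a chi-square per degree of freedom of 6.77 and 8.82 against the other sh-ctrl libraries, where other pairs within a group had 2.80 to 3.72.

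Most translation factors changed little in size, and more of them fell than rose with TMM scaling, though not with library totals alone. Of the 62 factors with enough counts to test, 37 were lower and 12 higher in sh-KIF11 by edgeR's quasi-likelihood test at an adjusted p under 0.05, and 13 were not called. Of all 12369 genes tested, 69.1% were called, with 34.4% higher and 34.7% lower. The counts by role below, where they are taken with TMM, are read against these shares. The factors had a median log2 fold change of -0.21 beside 0.00 over all genes tested, and 50 of them lay within 0.5 of no change on the log2 scale. At least a 2-fold change was reached by 2 factors, EEF1A2 upward and EIF4H downward, where 11.7% of all genes tested were called and changed by that much. The CPM of the libraries did not overlap between the groups for 45 factors, 34 lower and 11 higher, against 71.2% of all genes tested. With library totals alone the split of calls became 22 lower and 23 higher, with upper-quartile factors 33 lower and 15 higher, and with limma on log2(FPKM + 1) 24 lower and 19 higher. Library totals also moved the calls over all 12369 genes tested, to 6621 higher and 2373 lower. The median of the factors less that of all genes was -0.21 with TMM and -0.21 with library totals. That agreement was fixed in advance, since a change of scaling shifts every gene by nearly the same amount. Without sh-ctrl replicate 3, 36 were lower and 15 higher, among them EIF4E3, which then had enough counts to test. Of the tested factors, 31 kept their call and direction in every alternative that tested them, 21 lower and 10 higher.

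**Figure D1:**
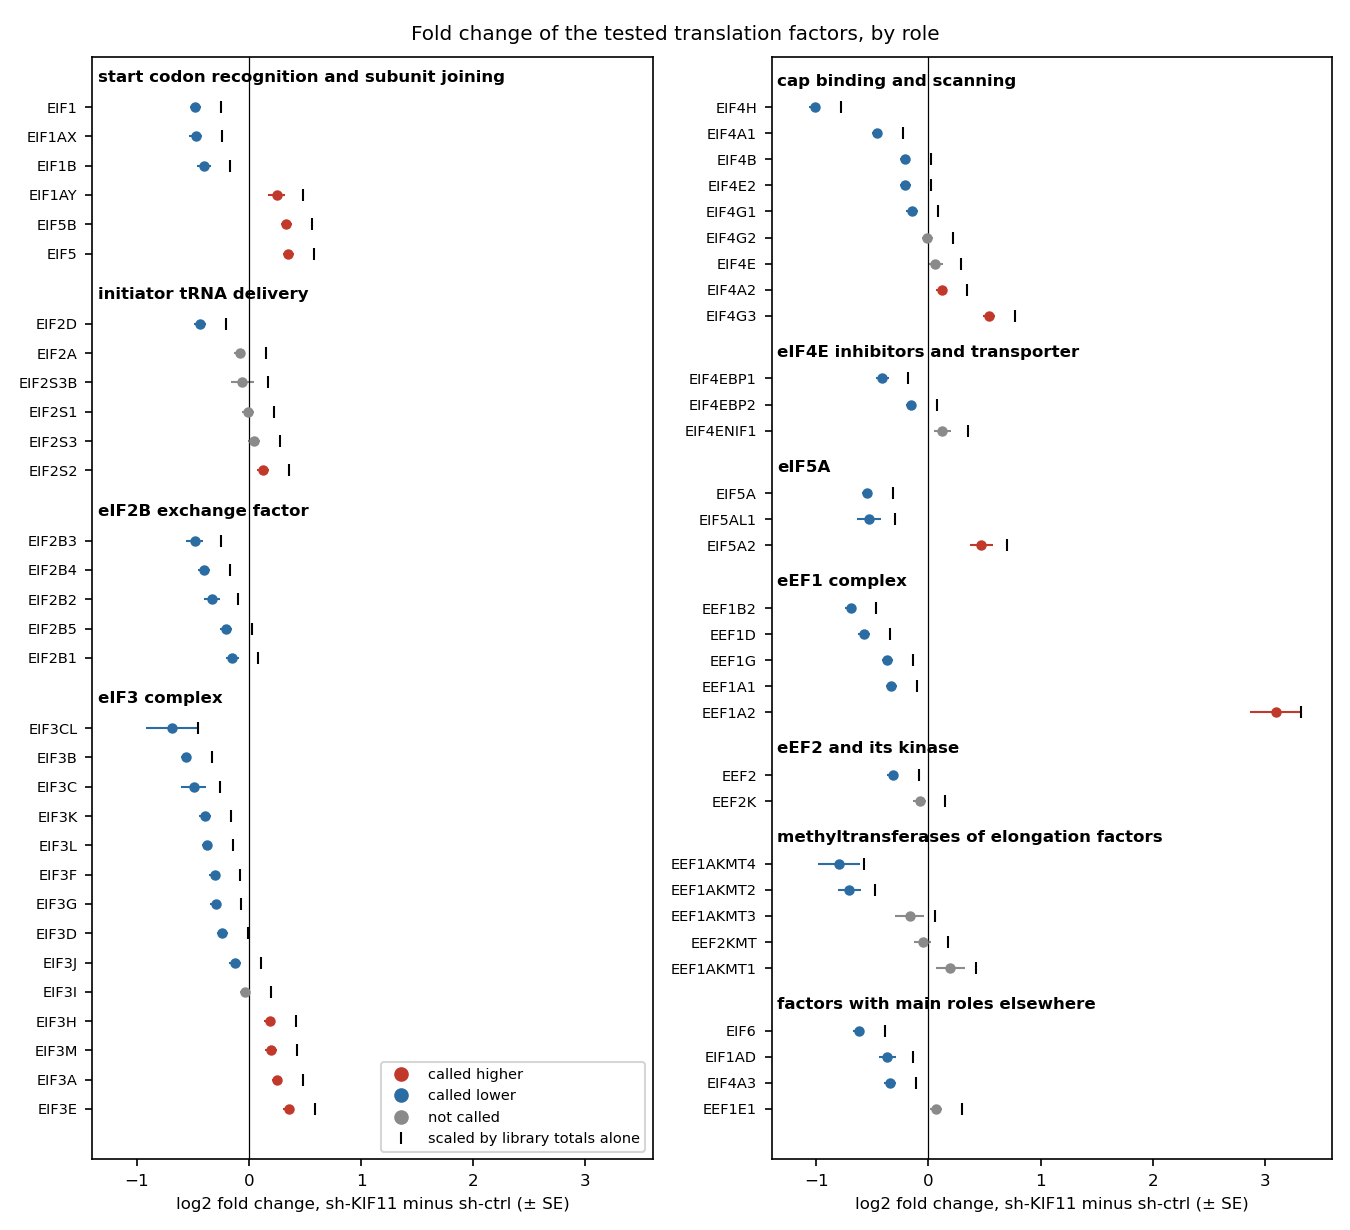
Log2 fold change of each of the 62 tested factors, sh-KIF11 minus sh-ctrl, in groups by role, with TMM scaling (circles with SE; red called higher, blue called lower, grey not called) and with library totals alone (black ticks). All 5 eIF2B subunits lie left of 0 with TMM, 4 of 14 eIF3 genes lie right of 0 with a call, and EEF1A2 stands far to the right at 3.10, while library totals shift every factor to the right and bring EIF2B1 and EIF2B5 past 0.

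GC content moved with the direction of the calls. In the longest protein-coding transcript of each gene, the median GC content was 40.4% for the 12 factors called higher and 51.2% for the 37 called lower. Over all genes tested the same medians were 44.4% for those called higher and 54.1% for those called lower. Whether GC content has a part in these calls was not tested.

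The elongation factors held the highest levels and 4 of the 5 eEF1 genes fell with TMM scaling, where 34.7% of all genes tested were lower. On the FPKM scale, which is per length and can be compared between genes, EEF1A1 stood at 3417 ± 118 (SD, n = 3) in sh-ctrl, followed by EEF1B2 at 813 ± 24.6, EEF2 at 727 ± 34.9, EEF1G at 722 ± 28.6 and EIF4A1 at 475 ± 7.60. EEF2 and EEF1G did not differ beyond their spread, whereas the steps from EEF1A1 to EEF1B2 and from EEF1G to EIF4A1 were far larger than it. These 5 genes made up 65.2% ± 0.298 of the summed FPKM of all 66 factors in sh-ctrl and 62.0% ± 0.509 in sh-KIF11 (two-sided exact permutation p = 0.1, the smallest that 3 against 3 libraries allow). All 66 factors together took 3.05% ± 0.0542 of the counts of a library in sh-ctrl and 2.95% ± 0.0333 in sh-KIF11 (exact permutation p = 0.1).

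**Figure D2:**
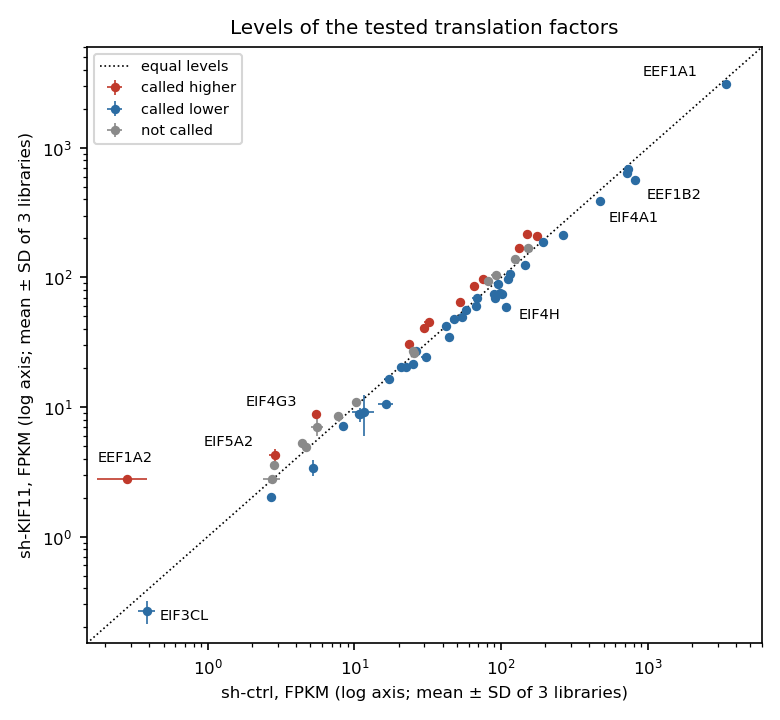
Mean FPKM of each tested factor in sh-KIF11 against sh-ctrl, on log axes with SD over 3 libraries, coloured by call. EEF1A1 stands alone at the top (3417 in sh-ctrl and 3083 in sh-KIF11), and EEF1A2, at 0.282 in sh-ctrl and 2.81 in sh-KIF11, is the point farthest from the line of equal levels. FPKM is not TMM-scaled, so several factors called lower lie on the line.

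EEF1A1, which carries aminoacyl-tRNA to the ribosome (chr6:73515750-73523797, minus strand, GRCh38), was counted 226539, 233941 and 238405 times in sh-ctrl and 214244, 211919 and 210863 times in sh-KIF11. This was 13263 ± 758 CPM against 10536 ± 258 CPM (log2 fold change -0.33, SE 0.0504, adjusted p = 2.28e-07). All 3 sh-KIF11 libraries were below all 3 sh-ctrl libraries, but with library totals alone the change was -0.10 and was not called (adjusted p = 0.0675). EEF1A1 has 39 pseudogenes under its name in GENCODE 29, and the sharing of reads with them was not tested.

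EEF1A2, the second eEF1A gene, best known from muscle and neurons (chr20:63488012-63499322, minus strand), moved the other way. It was counted 21, 14 and 9 times in sh-ctrl and 137, 147 and 150 times in sh-KIF11. The level went from 0.829 ± 0.325 CPM to 7.18 ± 0.394 CPM, a fitted 8.55-fold rise (log2 fold change 3.10, SE 0.225, adjusted p = 8.97e-16) with no overlap. It remained a minor form, since EEF1A2 made up between 0.00377% and 0.00927% of the counts of the eEF1A pair in sh-ctrl and between 0.0639% and 0.0711% in sh-KIF11. No other gene overlaps EEF1A2 in the annotation.

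The eEF1B subunits, which exchange the nucleotide on eEF1A, were all lower. EEF1B2, the catalytic alpha subunit (chr2:206159585-206162928, plus strand), was counted 17930, 18910 and 18228 times in sh-ctrl and 13411, 13240 and 12363 times in sh-KIF11 (log2 fold change -0.70, SE 0.0480, adjusted p = 1.77e-16). EEF1D, the delta subunit with a second exchange activity, was counted 7009, 6787 and 5954 times against 5284, 4969 and 4917 (log2 fold change -0.58, SE 0.0506). In both genes the groups were far apart, and both stayed lower with library totals, at -0.46 and -0.35. EEF1G, the structural gamma subunit, was lower by less, with a log2 fold change of -0.37.

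EEF2, the translocase (chr19:3976056-3985469, minus strand), was counted 70528, 70282 and 60489 times in sh-ctrl and 61565, 62208 and 60890 times in sh-KIF11. The third sh-ctrl library held fewer raw counts than any sh-KIF11 library, yet on the CPM scale the groups did not overlap (3811 ± 199 against 3054 ± 43.0, log2 fold change -0.32, adjusted p = 2.54e-07). With library totals alone it was -0.09 and not called. EEF2K, the kinase that switches eEF2 off, was counted 1871, 1789 and 1559 times against 1959, 1906 and 1794. Its log2 fold change of -0.08 (95% interval -0.19 to 0.03) was not called, turned to 0.15 with library totals, and was called at -0.13 without sh-ctrl replicate 3.

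The start sites of EEF1A1, EEF1B2 and EEF2 show the pyrimidine run described above. RefSeq annotated starts (GRCh38.p14) were matched for 53 of the 66 factors, with 70 starts in all. A C followed by at least 4 pyrimidines at the start, read only in the sense of the mRNA, was found at 13 of the 70 starts (18.6%), against 4.07% of all 35116 annotated starts. The sequences below, each with 40 bases before the start and 15 from it on, show the run in capitals for the 3 most abundant elongation factor genes with one, which were lower, and for the 2 genes with one that were called higher.
EEF1A1, chr6:73521018-73521072, minus strand: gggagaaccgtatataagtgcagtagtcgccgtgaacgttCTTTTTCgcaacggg
EEF1B2, chr2:206159855-206159909, plus strand: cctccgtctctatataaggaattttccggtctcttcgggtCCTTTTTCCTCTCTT
EEF2, chr19:3985449-3985503, minus strand: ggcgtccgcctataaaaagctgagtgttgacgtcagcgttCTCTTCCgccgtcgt
EIF4A2, chr3:186783537-186783591, plus strand: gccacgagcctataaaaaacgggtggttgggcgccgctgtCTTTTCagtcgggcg
EIF3M, chr11:32583791-32583845, plus strand: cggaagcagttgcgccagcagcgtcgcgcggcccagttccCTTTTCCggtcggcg

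Both directions occurred with the run. Of the 13 tested factors with it, 8 were lower, 2 higher and 3 not called (median log2 fold change -0.24), and of the 36 tested factors with an annotated start and no run, 24 were lower, 5 higher and 7 not called (median -0.27). The letters TATAA, read in the sense of the mRNA, lay between 45 and 16 bases before the start at 7 of the 70 starts (10%) against 4.09% of all starts. The E-box CACGTG, the same on both strands, lay within 250 bases before and 50 after at 14 (20%) against 7.26%. Of the 7 tested factors with TATAA 6 were lower and 1 higher, and of the 42 without it 26 were lower and 6 higher. Of the 12 with CACGTG 9 were lower and 1 higher, and of the 37 without it 23 were lower and 6 higher. Among the 10 factors listed from general knowledge as TOP mRNAs, 7 were lower and 3 higher (EEF1A2, EIF3E and EIF3H), and among the other 52 tested 30 were lower and 9 higher.

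The eIF5A genes split in the same manner as the eEF1A genes. EIF5A, which helps the ribosome through hard peptide bonds and carries the hypusine residue (chr17:7306999-7312463, plus strand), was counted 10468, 10059 and 9066 times in sh-ctrl and 7695, 7792 and 7698 times in sh-KIF11 (560 ± 25.0 against 383 ± 6.94 CPM, log2 fold change -0.55, adjusted p = 2.75e-13). EIF5A2, its paralogue (chr3:170888415-170908693, minus strand), was counted 171, 203 and 197 times against 275, 308 and 326 (10.8 ± 1.10 against 15.04 ± 1.42 CPM, log2 fold change 0.47, SE 0.106, adjusted p = 0.000141). Neither overlapped between the groups, and both kept their direction with library totals. EIF5AL1, a retrocopy that may share reads with EIF5A, fell by 0.53 on the log2 scale.

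Among the cap-binding and scanning factors 5 of the 9 tested were lower and 2 higher, which became 2 lower and 4 higher with library totals alone. Over all genes tested, 34.7% were lower and 34.4% higher with TMM, and 2373 of 12369 were lower and 6621 higher with library totals alone. EIF4H, an RNA-binding protein that stimulates the eIF4A helicase (chr7:74174245-74197101, plus strand), had the largest fall of the 62 factors. It was counted 8591, 8484 and 8060 times in sh-ctrl and 4694, 5060 and 4514 times in sh-KIF11. The groups were far apart, at 476 ± 5.88 against 236 ± 7.94 CPM, 2.02-fold lower (log2 fold change -1.01, SE 0.0481, adjusted p = 7.33e-22, and -0.78 with library totals). Its partner in function, EIF4B, was lower by 0.21 on the log2 scale with TMM and reversed to 0.02 with library totals.

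The eIF4A helicases were called in opposite directions. EIF4A1 (chr17:7572706-7579005, plus strand) was counted 23847, 23762 and 22966 times in sh-ctrl and 19198, 20324 and 19333 times in sh-KIF11 (log2 fold change -0.46, SE 0.0465, adjusted p = 1.44e-11). EIF4A2 (chr3:186783205-186789900, plus strand) was counted 6852, 7044 and 7208 times against 8527, 9447 and 8306. Its raw counts were higher in all 3 sh-KIF11 libraries, but its CPM overlapped between the groups (401 ± 23.2 against 434 ± 19.3, log2 fold change 0.12, adjusted p = 0.0372), and the call was lost without sh-ctrl replicate 1 (0.09), without sh-ctrl replicate 2 (0.10) and without sh-KIF11 replicate 2 (0.08). EIF4A1 lies within the read-through gene SENP3-EIF4A1 on the same strand, and both helicase genes host small nucleolar RNA genes.

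The scaffold eIF4G, which joins cap, helicase and eIF3, had its paralogues move apart. EIF4G1 (chr3:184314495-184335358, plus strand) was counted 14737, 14469 and 11928 times in sh-ctrl and 14019, 14410 and 14130 times in sh-KIF11, with sh-ctrl replicate 3 well below the rest. Its log2 fold change was -0.15 (adjusted p = 0.0111) with overlapping CPM, ended as a call without sh-ctrl replicate 1 (-0.10), without sh-ctrl replicate 2 (-0.12) or without sh-KIF11 replicate 2 (-0.14), and turned to 0.09 with library totals. EIF4G3 (chr1:20806292-21176888, minus strand) was counted 1607, 1662 and 1482 times against 2648, 2735 and 2540, a rise from 90.0 ± 2.14 to 131 ± 1.89 CPM (log2 fold change 0.54, SE 0.0515, adjusted p = 2.66e-12). EIF4G2, the relative that lacks the eIF4E-binding part, was counted 16225, 16554 and 17118 times against 18214, 19763 and 18868 and was not called (log2 fold change -0.01, 95% interval -0.11 to 0.09), but was called higher with library totals (0.22) and on both FPKM scales.

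The cap-binding protein EIF4E (chr4:98871684-98930637, minus strand) was counted 1092, 1099 and 1189 times in sh-ctrl and 1279, 1534 and 1243 times in sh-KIF11. Its CPM overlapped and it was not called (log2 fold change 0.06, 95% interval -0.07 to 0.19), but was called higher with library totals (0.29) and on both FPKM scales. Of its inhibitors, EIF4EBP1, a 4E-BP that mTOR phosphorylates, was counted 1613, 1492 and 1377 times against 1268, 1268 and 1319 (log2 fold change -0.41, SE 0.0584, adjusted p = 5.09e-08). EIF4EBP2 was counted 5029, 5164 and 4787 times against 5130, 5243 and 5026, and its log2 fold change of -0.16, called lower, turned to 0.07 with library totals. EIF4EBP3 was not tested, with no count in any sh-ctrl library and 0, 1 and 2 counts in the sh-KIF11 libraries, at or under the floor of 3 counts (0.145 to 0.178 CPM in a library).

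**Figure D3:**
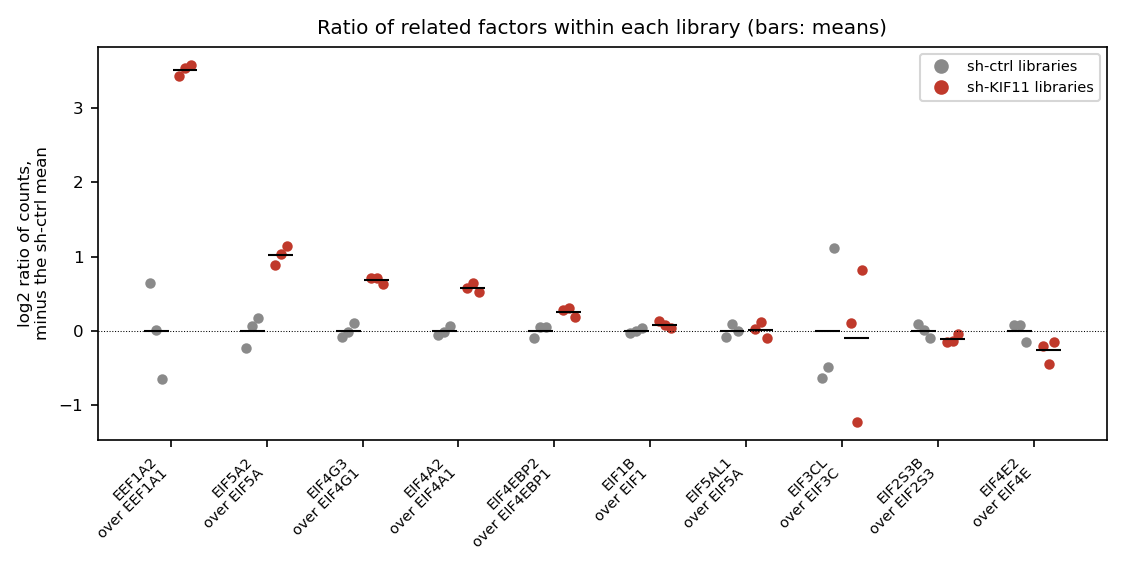
Log2 ratio of the counts of 10 related pairs within each library, minus the mean of the sh-ctrl libraries, with 3 sh-ctrl (grey) and 3 sh-KIF11 (red) points and bars at the means. The ratio was higher in every sh-KIF11 library for 5 pairs, from 0.25 for EIF4EBP2 over EIF4EBP1 to 3.52 for EEF1A2 over EEF1A1, and overlapped for the other 5.

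Ratios within a library do not depend on how libraries are scaled. They were taken over 10 pairs of related factors, chosen after the values were seen. The form placed first was the less abundant one, except for EIF4E2 over EIF4E and EIF4EBP2 over EIF4EBP1. For 5 pairs all 3 sh-KIF11 libraries exceeded all 3 sh-ctrl libraries, each with a two-sided exact permutation p = 0.1, the smallest possible. The ratio of EEF1A2 to EEF1A1 rose 11.5-fold and that of EIF5A2 to EIF5A 2.03-fold. EIF4G3 over EIF4G1 rose 1.61-fold, EIF4A2 over EIF4A1 1.49-fold and EIF4EBP2 over EIF4EBP1 1.19-fold. As a share, EIF4A2 went from between 22.3% and 23.9% of the counts of both helicases to between 30.1% and 31.7%, and EIF4G3 from between 9.83% and 11.1% of its pair with EIF4G1 to between 15.2% and 16.0%. The other 5 pairs overlapped, with differences in log2 ratio of 0.08 for EIF1B over EIF1, -0.27 for EIF4E2 over EIF4E, -0.11 for EIF2S3B over EIF2S3, 0.01 for EIF5AL1 over EIF5A and -0.10 for EIF3CL over EIF3C.

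The subunits of eIF3, the scaffold of the small-subunit complex, went in both directions. Of its 14 genes 9 were lower, 4 higher and 1, EIF3I, was not called, beside 34.7% lower and 34.4% higher over all genes tested. For the 14 genes library totals alone gave 4 lower and 5 higher, where 2373 of all 12369 genes tested were lower and 6621 higher. The share of a library's counts that fell on the eIF3 genes, which uses library totals, was 0.331% ± 0.00285 for sh-ctrl and 0.369% ± 0.00632 for sh-KIF11 (two-sided exact permutation p = 0.1, the smallest possible). With library totals the median log2 fold change of all genes tested was 0.24, so this share alone shows no rise relative to the bulk of genes. EIF3A, the largest subunit (chr10:119033670-119080823, minus strand), was counted 12336, 12601 and 12017 times in sh-ctrl and 16196, 17705 and 16388 times in sh-KIF11 (701 ± 10.4 against 831 ± 24.1 CPM, log2 fold change 0.25, adjusted p = 1.30e-05). EIF3E (chr8:108201216-108435333, minus strand) was counted 5129, 5470 and 5242 times against 7806, 7587 and 7814 (log2 fold change 0.35, SE 0.0491, adjusted p = 3.41e-08). In both, every sh-KIF11 library was above every sh-ctrl library, and EIF3H and EIF3M rose by 0.18 and 0.20.

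EIF3B, the beta-propeller subunit that binds the 40S ribosome (chr7:2354086-2380745, plus strand), went the other way. It was counted 9625, 9011 and 8430 times in sh-ctrl and 7001, 7135 and 6854 times in sh-KIF11 (513 ± 23.3 against 347 ± 2.16 CPM, log2 fold change -0.56, SE 0.0481, adjusted p = 1.17e-13). Of the 8 subunits of the PCI and MPN core (A, C, E, F, H, K, L and M), 4 were higher and 4 lower, with a median of -0.06. Of the other 5 subunits (B, D, G, I and J), 4 were lower and none higher with TMM, with a median of -0.24. With library totals only EIF3B of these 5 was called lower, and EIF3I was called higher (0.19), as it also was on both FPKM scales. EIF3D, EIF3F, EIF3G, EIF3K and EIF3L fell by between 0.24 and 0.39 on the log2 scale, though EIF3D, EIF3F and EIF3G were not called with library totals (-0.01, -0.08 and -0.07). EIF3J at -0.13 turned to 0.10 with library totals, and its call was lost without sh-ctrl replicate 1 (-0.12), sh-ctrl replicate 3 (-0.10), sh-KIF11 replicate 1 (-0.13) or sh-KIF11 replicate 2 (-0.11).

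**Figure D4:**
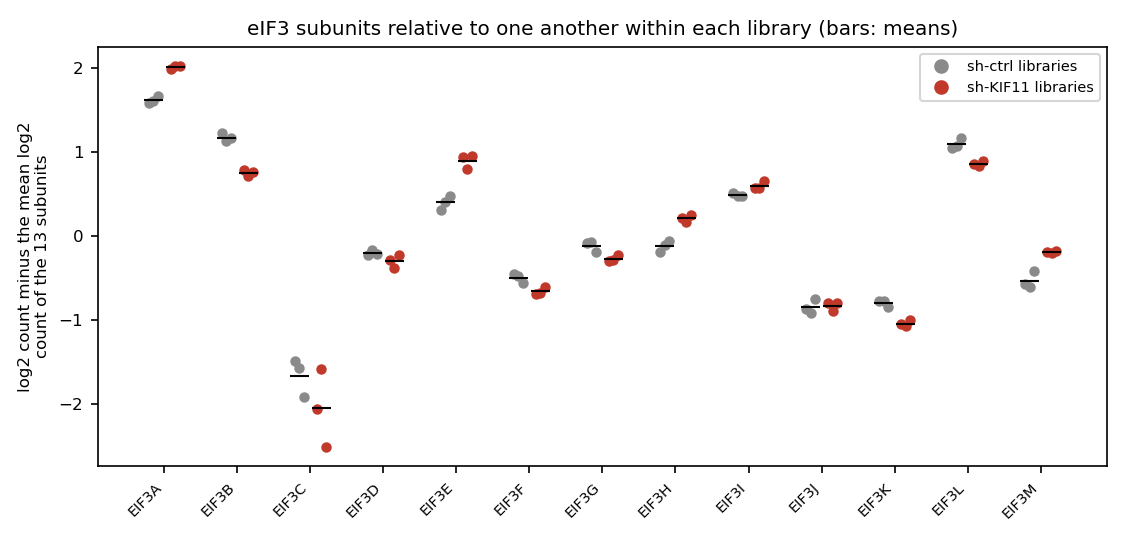
Log2 count of each of 13 eIF3 subunits minus the mean log2 count of the 13 in the same library, with 3 sh-ctrl (grey) and 3 sh-KIF11 (red) points and bars at the means. EIF3A, EIF3E, EIF3H, EIF3I and EIF3M are higher in every sh-KIF11 library, EIF3B, EIF3F, EIF3G, EIF3K and EIF3L lower, and EIF3C, EIF3D and EIF3J overlap.

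The subunits were also set against the mean of 13 of them in the same library, a measure added after the values were seen. It gives the order of the subunits among themselves, and since the centring makes rises and falls balance, the number on each side is no result. On it EIF3E was higher by 0.50, EIF3A by 0.39, EIF3M by 0.34, EIF3H by 0.33 and EIF3I by 0.11 on the log2 scale, while EIF3B was at -0.42, EIF3K at -0.24, EIF3L at -0.23, EIF3F at -0.16 and EIF3G at -0.15, with no overlap between the groups. EIF3C and EIF3CL are near-identical copies on chromosome 16 whose reads the counting could divide, and their values are uncertain. EIF3C ranged from 995 to 1468 counts in sh-ctrl and from 707 to 1447 in sh-KIF11. Its log2 fold change of -0.49 was -0.78 without sh-KIF11 replicate 2 and -0.29 without sh-KIF11 replicate 3, with the call lost in DESeq2 and on both FPKM scales. The call of EIF3CL (-0.69) was lost with DESeq2, with library totals alone (-0.45), without sh-ctrl replicate 3 (-0.16) and without sh-KIF11 replicate 2 (-0.43).

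Of the 6 factors that choose the start codon and join the subunits, 3 were higher and 3 lower. The shares over all genes tested were 34.4% higher and 34.7% lower. EIF5, which makes eIF2 hydrolyse its GTP (chr14:103333544-103345025, plus strand), was counted 3822, 3729 and 4089 times in sh-ctrl and 5608, 5913 and 5533 times in sh-KIF11 (221 ± 18.8 against 282 ± 3.29 CPM, log2 fold change 0.35, adjusted p = 1.49e-07). EIF5B, the GTPase of subunit joining (chr2:99337353-99401326, plus strand), was counted 4522, 4794 and 3976 times against 6036, 6884 and 6255 (log2 fold change 0.33, adjusted p = 3.22e-07). Both were higher in every sh-KIF11 library. The scanning factors EIF1, EIF1AX and EIF1B fell by 0.48, 0.48 and 0.40, and EIF1AY, the Y-linked copy of EIF1AX, rose by 0.25.

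The subunits of eIF2, which carries the initiator tRNA, moved little. EIF2S1, the alpha subunit whose phosphorylation by stress kinases slows initiation (chr14:67359997-67386516, plus strand), was counted 1932, 1955 and 2054 times in sh-ctrl and 2240, 2379 and 2174 times in sh-KIF11 and was not called (log2 fold change -0.01, 95% interval -0.11 to 0.10), though it was called at 0.22 with library totals. EIF2S2 was called at 0.12 with overlapping CPM, and the call was lost without sh-ctrl replicate 1 or 2 and without sh-KIF11 replicate 2 or 3 (0.09 to 0.12). EIF2S3 at 0.04 (called higher at 0.12 without sh-ctrl replicate 3, and also with upper-quartile factors, both FPKM scales and library totals alone, the last at 0.27) and its retrocopy EIF2S3B at -0.06 were not called. The alternative tRNA carrier EIF2D fell by 0.44, and EIF2A at -0.08 was not called, though it was called at 0.15 with library totals alone. All 5 subunits of eIF2B, which reloads eIF2 with GTP, were lower, from -0.49 for EIF2B3 to -0.15 for EIF2B1, with no overlap in CPM. Over all genes tested, 34.7% were lower and 71.2% did not overlap in CPM. With library totals, however, EIF2B1 and EIF2B5 turned to 0.08 and 0.02. Then 2 of the 5, EIF2B3 and EIF2B4, were called lower, beside 2373 of all 12369 genes tested. The call of EIF2B1 was also lost without sh-KIF11 replicate 1 (-0.14), without sh-KIF11 replicate 2 (-0.13) or without sh-ctrl replicate 2 (-0.16).

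EIF6, which keeps the large subunit from joining early and acts in its maturation (chr20:35278911-35284985, minus strand), was counted 5996, 6051 and 5544 times in sh-ctrl and 4313, 4430 and 4360 times in sh-KIF11. This was a fall from 333 ± 4.21 to 217 ± 3.83 CPM (1.54-fold lower, log2 fold change -0.62, SE 0.0477, adjusted p = 4.80e-15), with the groups far apart. EIF4A3, a helicase of the exon junction complex, and EIF1AD fell by 0.34 and 0.37, the latter not called with library totals alone (-0.14). EEF1E1, which scaffolds aminoacyl-tRNA synthetases, was not called at 0.07, but was at 0.13 without sh-ctrl replicate 3, and it was called higher with upper-quartile factors, library totals alone (0.30) and both FPKM scales.

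Of the enzymes that methylate elongation factors, 2 of 5 were lower, near the 34.7% of all genes tested that were lower. EEF1AKMT4 was counted 85, 77 and 95 times in sh-ctrl and 56, 53 and 60 times in sh-KIF11 (log2 fold change -0.80, SE 0.187, adjusted p = 0.000234). EEF1AKMT2 was counted 308, 365 and 369 times against 218, 293 and 222 (log2 fold change -0.71, SE 0.104, adjusted p = 1.15e-07). Both are lysine methyltransferases of eEF1A with few counts, and EEF1AKMT4 shares its locus with the read-through gene EEF1AKMT4-ECE2. The other 3, EEF1AKMT1, EEF1AKMT3 and EEF2KMT, lay at 0.19, -0.17 and -0.05 and were not called. EEF1AKMT1 was called higher with library totals alone (0.42), with limma on both FPKM scales and without sh-KIF11 replicate 3 (0.31), and EEF2KMT turned and was called higher with library totals alone (0.18).

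The remaining untested factors were near or at 0. EEF1AKMT4-ECE2 and EIF4E1B had no count in any library, which allows up to 3 counts in each. EIF4E3, another cap-binding protein, was counted 5, 4 and 3 times in sh-ctrl and 11, 10 and 19 times in sh-KIF11. It was tested without the low-count filter and when a library was left out, and was then called higher except without sh-KIF11 replicate 3. Strand use in the counting is not given in the sources used here, and 53 of the 66 factors overlap another annotated gene, so reads of such neighbours cannot be told apart.

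Other genes that act on these factors, in lists of their own, were also called in both directions, and their counts are read against the 34.4% of all genes tested that were higher and the 34.7% that were lower. Of 9 genes for the eIF2 kinases and the phosphatase that opposes them, 3 were higher and 3 lower, close to the share over all genes. PPP1R15A, the stress-induced phosphatase subunit, rose by 0.80 and EIF2AK4, the kinase that senses uncharged tRNA, by 0.35, while the constitutive subunit PPP1R15B fell by 0.63 and PPP1CA by 0.50. Of 14 genes of mTOR and MNK signalling to initiation, 4 were higher and 6 lower. The mTORC1 restraining genes in that list moved in opposite directions, with SESN3 at 2.31 and SESN2 at 0.86 against DDIT4 at -1.13, and RPS6KB2, an S6 kinase, was at -0.62. Of 9 genes that make hypusine on eIF5A or diphthamide on eEF2, 1 was higher (DNAJC24, 0.49) and 4 lower, among them DHPS (-0.33) and DPH6 (-0.29). Of 6 tested poly(A) binding genes 2 were higher (PABPN1, 0.15, and PAIP2, 0.14) and 4 lower (PABPC4, -0.40, and PAIP2B, -0.33, the lowest). The call of PABPN1 was lost without sh-ctrl replicate 3 and without any 1 of the sh-KIF11 libraries, and that of PAIP2 without sh-ctrl replicate 1 and without sh-KIF11 replicate 2 or 3, so that 0 of the list were higher without sh-KIF11 replicate 2 or without sh-KIF11 replicate 3. PAIP2B lost its call without sh-ctrl replicate 1 or sh-KIF11 replicate 3. Of 7 tested termination and recycling genes 2 were higher (DENR, 0.20, and ABCE1, 0.18) and 2 lower (PELO, -0.24, and GSPT1, -0.23). PELO lost its call without sh-KIF11 replicate 2, and DPH6 lost its call without sh-ctrl replicate 1 or 2 and without sh-KIF11 replicate 1 or 3. With library totals alone the lists became 6 higher for the eIF2 kinases and phosphatase, 8 higher and 3 lower for mTOR and MNK signalling, 5 higher and 0 lower for both the modification and the termination genes, and 1 lower for poly(A) binding. Under that scaling 6621 of all 12369 genes tested were higher and 2373 lower.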

How the data were processed

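Poly(A) RNA of 6 HepG2 libraries was sequenced as stranded mRNA libraries. The authors deposited raw counts per gene and, for the same genes, FPKM values, normalized by gene length and depth. The submitters' processing notes name bcl2fastq 1.8.4, Trimmomatic, HISAT2 2.1.0, Cufflinks 2.2.1, HTSeq 0.9.1 and DESeq with GRCh38. The strand setting of the counting is not given in the sources used here. The knockdown columns of the tables are named only as shRNA and were taken as sh-KIF11, the only hairpin besides the control in the labels.

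Counts were fitted over all genes with edgeR 4.0.16 in R 4.3.3 (quasi-likelihood test, two-sided, TMM factors, filterByExpr, group as the only term, Benjamini-Hochberg adjustment over 12369 genes, threshold 0.05). Common biological variation was 4.87%. FPKM was fitted with limma 3.58.1 on log2(FPKM + 1) and log2(FPKM + 0.1) as alternatives, where fold changes of low genes are understated. The other alternatives were DESeq2 1.42.0, RLE or upper-quartile factors, library totals alone, no filter, a minimum of 10 counts everywhere, a replicate block, and leaving out each library. The fits were tested on drawn counts in which a small part of the genes changed, as many up as down. That draw does not bear on small changes or on the choice of scaling. Single values were compared by an exact permutation test over libraries. Intervals are the fold change ± 1.96 SE, and they and the floor of 3 counts cover no error beyond the libraries' own spread and counting. Coordinates and GC content came from GENCODE 29 (GRCh38), start sites from RefSeq (GRCh38.p14).

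The chi-square per degree of freedom between libraries of a group was 2.80 to 8.82, with the pairs of sh-ctrl replicate 3 at 6.77 and 8.82, so no library was a copy of another. The factors and lists were chosen with earlier results of these data known. Counts in each library are given for the 6 factors with the largest rise and the 6 with the largest fall among those called, at 1 CPM or more and without overlap, and for a list of 19 central factors. The other factors with counts are named as uncertain or untested ones. From each neighbouring list at most 2 genes in each direction are named. The ratios within pairs and within eIF3 were added after values were seen.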

Additional observations from a re-analysis of the deposited data

How the results depend on the processing

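Of 15 alternatives, RLE size factors and the replicate number as a block changed no call of the 62 tested factors. With the replicate block 12 factors were higher and 37 lower, as without it. The deviations of same-numbered libraries correlated at 0.030, -0.018 and -0.0025, and those of differently numbered libraries at -0.049 to 0.053. No shared deviation by number was seen, but this cannot show whether same-numbered libraries were made together. DESeq2 lost 2 calls and no low-count filter 1. Over all factors and alternatives, 802 values kept their side of the threshold and direction, and 51 changed sign. With the sign kept, 54 lost a call and 22 gained one. Some of the 51 also lost or gained a call, such as EIF4B and EIF2S1 with library totals alone. The main limit is the scaling, since many changes are smaller than the 0.24 by which library totals alone move the median of all genes (upper-quartile factors 0.08, log2(FPKM + 1) 0.12, log2(FPKM + 0.1) 0.17). Depth limits the 4 untested factors and those with few counts, such as EIF3CL, and 3 libraries a group allow no exact p under 0.1.

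With library totals alone, 23 factors were higher and 22 lower and the median was 0.023, with 6621 of all genes higher and 2373 lower. The counts became 4 higher for initiator tRNA delivery, 2 lower for eIF2B, 4 lower for eIF3, 4 higher and 2 lower for cap binding, 1 higher and 1 lower for the eIF4E inhibitors, 1 higher and 0 lower for eEF2 and its kinase, 2 higher for the methyltransferases and 1 higher for factors with main roles elsewhere. Among the neighbouring lists they became 6 higher for the eIF2 kinases, 1 lower for poly(A) binding, 5 higher and 0 lower for termination, 5 higher and 0 lower for modification, 8 higher and 3 lower for mTOR signalling, 1 lower for the mitochondrial factors, and 12 higher and 5 lower for the synthetases. The signs turned for EEF1AKMT3 (0.062), EEF2K (0.15), EEF2KMT (0.18), EIF2A (0.15), EIF2B1 (0.082), EIF2B5 (0.024), EIF2S1 (0.22), EIF2S3B (0.17), EIF3I (0.19), EIF3J (0.10), EIF4B (0.021), EIF4E2 (0.025), EIF4EBP2 (0.074), EIF4G1 (0.086) and EIF4G2 (0.22).

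With limma on log2(FPKM + 1), and likewise on log2(FPKM + 0.1), 19 factors were higher and 24 lower and the median was -0.043 on both, with 2596 and 2597 of all genes lower, and on the first scale the median less that of all genes was -0.16. Both gave 2 higher for initiator tRNA delivery, 2 lower for eIF2B, 4 lower for eIF3, 4 higher and 2 lower for cap binding, 1 higher and 1 lower for the eIF4E inhibitors, 0 lower for eEF2 and its kinase, 1 higher for the methyltransferases and 1 higher for factors with main roles elsewhere. Both also gave 5 higher for the eIF2 kinases, 2 lower for poly(A) binding, 5 higher and 0 lower for termination, 4 higher and 0 lower for modification, 7 higher for mTOR signalling, 1 lower for the mitochondrial factors, and 10 higher and 6 lower for the synthetases. The signs turned, on the + 1 and the + 0.1 scale in turn, for EEF1AKMT3 (0.014 and 0.0199), EEF2K (0.085 and 0.092), EEF2KMT (0.12 and 0.13), EIF2A (0.032 and 0.033), EIF2B1 (0.024 and 0.025), EIF2S1 (0.11 and 0.11), EIF2S3B (0.063 and 0.075), EIF3I (0.16 and 0.16), EIF3J (0.019 and 0.019), EIF4EBP2 (0.0043 and 0.0043), EIF4G1 (0.0391 and 0.0396) and EIF4G2 (0.16 and 0.16).

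With upper-quartile factors the median was -0.13, the counts became 2 higher for initiator tRNA delivery, 1 higher and 1 lower for the eIF4E inhibitors, 1 higher for factors with main roles elsewhere, 2 lower for poly(A) binding, 1 lower for termination and 2 higher and 2 lower for modification, and the signs turned for EEF2KMT (0.027), EIF2S1 (0.073), EIF2S3B (0.017), EIF3I (0.042) and EIF4G2 (0.068). With 10 counts in every library the median was -0.18 (less that of all genes -0.19), no eEF1 gene was higher (0) because EEF1A2 was not tested, and EIF2S1 (0.0201) and EIF4G2 (0.015) turned. Without the low-count filter the median less that of all genes was -0.28 and poly(A) binding had 1 gene higher. The cause of the other shifts was not tested.

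Leaving out 1 library in turn gave 11 to 15 factors higher and 33 to 37 lower, with EIF4E3 counted where it was then tested, as it was without the low-count filter. The median ranged from -0.23 to -0.20, and less that of all genes from -0.24 to -0.21. Counts ranged from 0 to 2 higher for initiator tRNA delivery, 1 to 2 lower for eEF2 and its kinase, 0 to 1 higher for the methyltransferases and for factors with main roles elsewhere, 0 to 2 higher for poly(A) binding, 1 to 2 lower for termination, and 1 to 2 higher and 2 to 4 lower for modification. EIF2S1 ranged from -0.030 to 0.049, turning without sh-KIF11 replicate 3 (0.0052) and without sh-ctrl replicate 3, EIF4G2 ranged from -0.034 to 0.039, turning without sh-KIF11 replicate 1 (0.011) and without sh-ctrl replicate 3, and EIF4E ranged from -0.018 (without sh-KIF11 replicate 2) to 0.13. None of these was called in the fit of all 6 libraries.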

Other observations

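Genes that charge tRNAs were also measured. Of 22 cytosolic aminoacyl-tRNA synthetase and scaffold genes, 11 were lower in sh-KIF11, 5 higher and 6 not called by edgeR's quasi-likelihood test, where 34.7% of all genes tested were lower and 34.4% higher. FARSA, a subunit of the phenylalanyl enzyme, went from 143 ± 5.57 to 107 ± 1.77 CPM (SD, n = 3, log2 fold change -0.41), and KARS, the lysyl enzyme, was at -0.40. NARS, the asparaginyl enzyme, went from 211 ± 10.97 to 257 ± 3.79 CPM (log2 fold change 0.29), and LARS, the leucyl enzyme, was at 0.28. With library totals alone the list became 5 lower and 12 higher, where 2373 of all 12369 genes tested were lower and 6621 higher.

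The mitochondrial translation factors, which serve the organelle's own ribosomes, had 4 of 9 genes higher and 2 lower, beside 34.4% and 34.7% of all genes tested. TUFM, the mitochondrial elongation factor that delivers tRNA, went from 540 ± 30.8 to 414 ± 12.7 CPM (log2 fold change -0.38), and its exchange factor TSFM was at -0.31, in the direction of EEF1A1 and EEF1B2, the cytosolic genes of the same roles. MTRF1, a release factor, was at 0.45. GFM1, the elongation factor with the role of EEF2, was at 0.24, against the direction of EEF2 (-0.32). With library totals alone 1 gene of the list was called lower, beside 2373 of all 12369 genes tested. TUFM was then at -0.15 and TSFM at -0.08.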
